A study of Arabidopsis thaliana with 6 samples.

Results

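Berberine bridge enzyme-like proteins are oxidoreductases that carry a bound flavin and pass electrons from their substrate to oxygen or another acceptor. Arabidopsis has a family of them, many of which enter the secretory pathway. Substrates known for single members include fragments of pectin and cellulose, monolignols and an indole cyanohydrin made from tryptophan, and several members are known as genes that respond to pathogens and elicitors. The 10 loci described here lie in 3 groups of neighbouring genes, AT1G26380 to AT1G26420, AT1G30700 to AT1G30730 and AT4G20830 to AT4G20860. They were taken as a fixed list of loci, and a locus was read where the platform's table gives it a probe set of its own. That held for 8 of the 10, out of 13286 loci with such a probe set. The remaining 2, AT1G30720 and AT1G30730, are neighbours that share 1 probe set, so no value is given for either.

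Transcripts were measured in whole Col-0 seedlings of developmental stage 1.04, a wild-type accession, grown on plates with 0.8% agar. One group of 3 samples was fumigated for 6 h with ozone at 500 ppb, the other group of 3 with scrubbed air, and RNA was taken right after fumigation. Each sample was read on 1 Affymetrix ATH1 array. Values are MAS5 signals on a linear scale, a log2 fold change is ozone minus control, and errors of means are SD with n = 3. The labels do not say whether replicates were grown separately, and the p-values rest on the spread among these samples, part or all of which may be technical.

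Median signals of the 6 arrays ran from 41.7 to 49.5. A filter left out probe sets whose mean log2 signal was below a signal of 31.2, and 5 of the 8 genes were above it. The other 3, AT1G26400, AT1G26410 and AT1G26420, were below it and are given from a fit without the filter. The root marker PYK10 read 1806 to 3350 on the 6 arrays and the leaf gene RCA 1603 to 3172, so both organs of the labelled whole plant were seen. The arrays numbered 1 shared deviations from their group means (r = 0.747 across probe sets, against 0.374 and 0.439 for replicates 2 and 3), and some values are given without both of them.

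With ozone, 7 of the 8 measured genes rose at a limma adjusted p under 0.05 in the fit without the filter, and 0 fell, also at an unadjusted p under 0.05. In that fit 8.34% of 22746 probe sets rose and 8.04% fell. The median log2 fold change of the 8 genes was 2.76, against -0.17 for all probe sets. Above the filter, 5 of 5 rose, where 13.0% of 13648 probe sets rose and 14.9% fell, but AT1G26380 passed the filter through its ozone arrays. For 7 of the 8 genes the lowest ozone signal exceeded the highest control signal, a pattern found at 13.8% of all probe sets, with the reverse pattern at 21.8%. The whole set gave 7 rising genes also without both arrays numbered 1. The list was drawn up with earlier results of these arrays known.

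**Figure D1:**
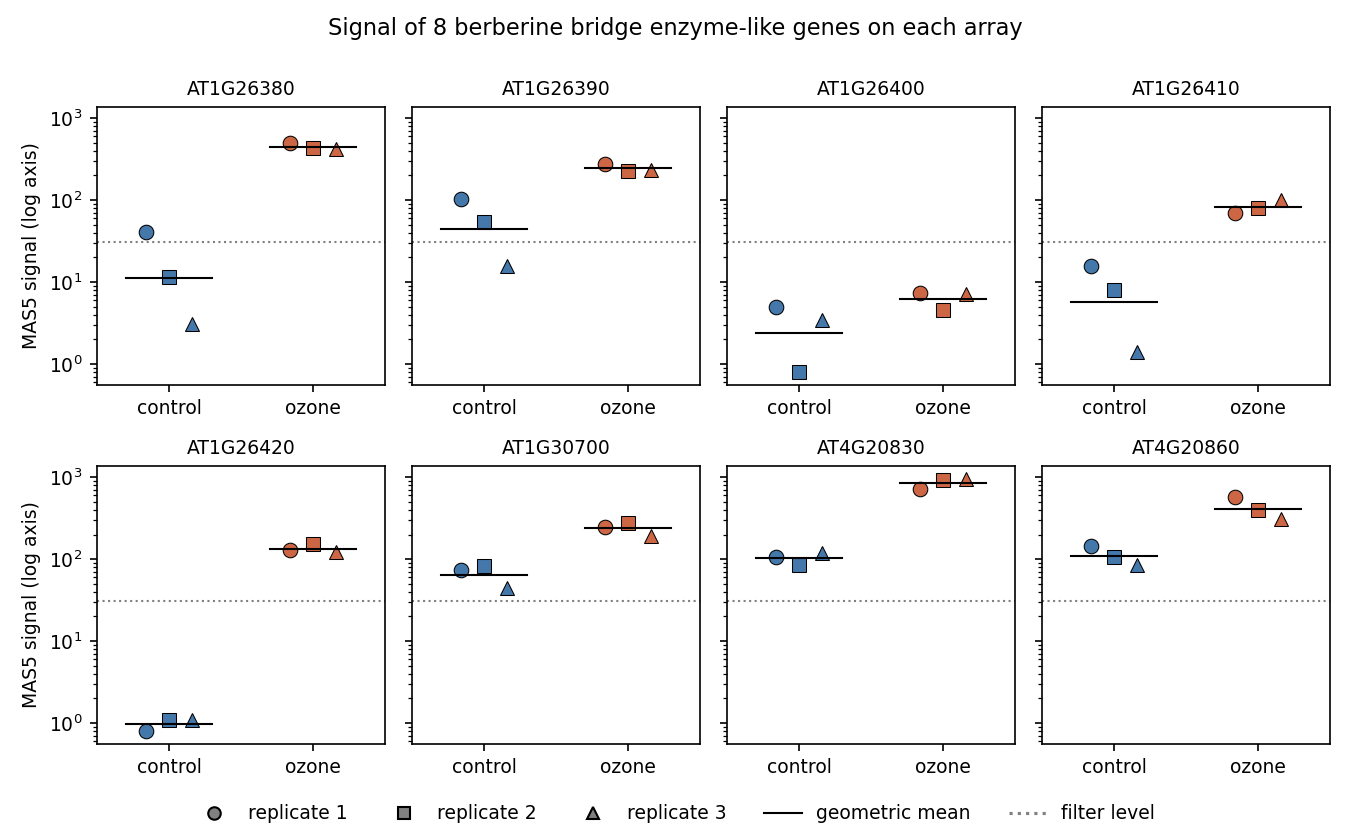
MAS5 signal on a log axis for 8 genes, with 1 point per array, blue for control and orange for ozone, marker shape for the replicate number, a black line for the geometric mean and a dotted line at the filter level of 31.2. The groups are apart in every panel but that of AT1G26400, whose signals lie between 0.8 and 7.3.

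AT1G26380, also called FOX1, oxidises an indole cyanohydrin on the way to an indole carbonyl nitrile, a defence compound made from tryptophan. Its signals were 40.4, 11.6 and 3.1 on control replicates 1, 2 and 3, and 493, 438 and 417 on the ozone arrays. The ozone arrays lay close together, while the control arrays spread widely and stayed far below them. The log2 fold change was 5.31 (SE 0.776, limma adjusted p = 0.00241), at rank 20 of 13648 from the top. In the fit without the filter the limma adjusted p was 0.00481 and the rank 46 of 22746. The log2 fold change was 6.16 without both arrays numbered 1, 6.22 without control replicate 1 and 4.37 without control replicate 3. With 16 added to every signal it was 3.91. The call held in each of these settings, while the size moved.

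The next gene along the chromosome, AT1G26390, had control signals of 104.5, 53.8 and 15.8 and ozone signals of 278, 226 and 233. The groups did not overlap, and control replicate 1 lay nearest to the ozone arrays. The log2 fold change was 2.45 (SE 0.588, adjusted p = 0.0177), with 2.98 without both arrays numbered 1, 3.07 without control replicate 1 and 1.71 without control replicate 3. Without ozone replicate 2 the adjusted p was 0.0598. In the fit without the filter the adjusted p was 0.031, and 0.0815, 0.0983, 0.0768 and 0.0757 without ozone replicate 1, 2 or 3 or control replicate 2.

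AT1G26400, the middle gene of this row of 5, was dim throughout. Its signals were 4.9, 0.8 and 3.4 in the controls and 7.3, 4.5 and 7.1 with ozone, and the groups overlapped. Without the filter its log2 fold change was 1.38 (SE 0.714, adjusted p = 0.25), or 0.23 with 16 added to every signal. No difference was called at signals this low, and whether one could be detected there was not tested.

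AT1G26410 had control signals of 15.8, 8.1 and 1.4 and ozone signals of 68.8, 80.9 and 101.2. Every ozone array was above every control array. In the fit without the filter the log2 fold change was 3.87 (SE 0.807, adjusted p = 0.0169), or 2.06 with 16 added. It was 4.75 without both arrays numbered 1, 4.62 without control replicate 1 and 2.87 without control replicate 3, and the adjusted p was 0.069 and 0.0562 without ozone replicate 2 or 3.

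AT1G26420 was read near the bottom of the range in the controls. Its signals were 0.8, 1.1 and 1.1 in the controls and 127.8, 154.9 and 122.5 with ozone. With ozone it was above the filter level on each array. Without the filter the log2 fold change was 7.09 (SE 0.326, adjusted p = 6.08e-05), at rank 11 of 22746, or rank 82 with 16 added and 267 with 64 added. A fold against so low a signal depends on how low signals are treated: it was 3.15 with 16 added and 1.61 with 64 added, and the adjusted p stayed at or below 0.000299. Among the 8 genes it had the highest log2 fold change as deposited, while with 16 or 64 added AT1G26380 was higher (3.91 and 2.66).

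The second row of neighbours, on the same chromosome, starts with AT1G30700. Its signals were 73.0, 82.7 and 44.1 in the controls and 249.5, 277.6 and 193.7 with ozone. The groups were apart, and both were above the filter level on each array. The log2 fold change was 1.89 (SE 0.265, adjusted p = 0.00205), and it lay between 1.61 and 2.07 when any 1 array was left out. Neighbours in the same row that are not among the 10, AT1G30710 and AT1G30740, had signals of at most 7.2 on the 6 arrays.

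The third row, on chromosome 4, includes genes whose products are known to oxidise cell wall fragments. AT4G20830, or OGOX1, oxidises oligogalacturonides, the pectin fragments that plants sense as damage signals. Its signals were 107.2, 84.0 and 118.7 in the controls and 711, 928 and 952 with ozone, a rise from 103 ± 17.7 to 864 ± 133. The log2 fold change was 3.07 (SE 0.193, adjusted p = 8.24e-05, 95% interval 2.62 to 3.51). It was 2.88 with 16 added and 2.47 with 64 added.

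AT4G20860, or CELLOX1, oxidises cellodextrins, the fragments of cellulose. Its signals were 145.6, 106.6 and 84.9 in the controls and 567, 396 and 309 with ozone. Replicate 1 was the highest and replicate 3 the lowest of both groups, and the log2 ratio within a replicate number was 1.96, 1.89 and 1.86. The log2 fold change was 1.91 (SE 0.275, adjusted p = 0.00229). With the replicate number as a block the calls for the 8 genes were as without it.

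The spread within the groups differed between these genes. Over the control arrays the log2 SD was 1.85 for AT1G26380, 1.38 for AT1G26390 and 1.81 for AT1G26410, against 0.12, 0.16 and 0.28 over the ozone arrays. The dim AT1G26400, which lies between them, had 1.38 over control and 0.39 over ozone arrays. The lowest control signals were 3.1 for AT1G26380, 15.8 for AT1G26390, 0.8 for AT1G26400 and 1.4 for AT1G26410. At very low levels small differences in signal can make a large log2 SD. AT1G26420, at 0.8 to 1.1 in the controls, had a log2 SD of 0.27 over control and 0.18 over ozone arrays. The median log2 SD over all probe sets, not matched for signal, was 0.29 for control and 0.32 for ozone arrays. For AT1G26380, AT1G26390 and AT1G26410 control replicate 1 read highest and control replicate 3 lowest. Within a replicate number their log2 ratios were therefore uneven, with 3.61, 5.24 and 7.07 for AT1G26380 in replicates 1, 2 and 3, and 1.41, 2.07 and 3.88 for AT1G26390. AT4G20830, by contrast, had a log2 SD of 0.26 over control and 0.23 over ozone arrays. What set the levels of the control arrays apart was not tested.

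**Figure D2:**
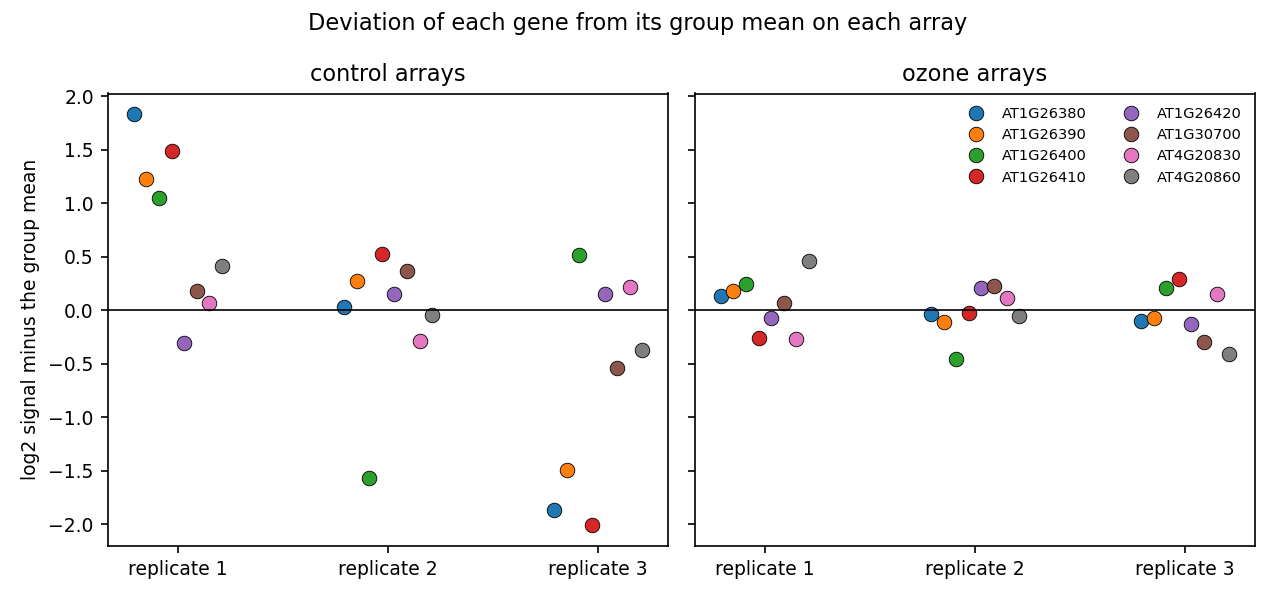
Log2 signal minus the mean of the same gene and group (vertical axis) on control arrays (left) and ozone arrays (right), with 1 point per gene and array. AT1G26380, AT1G26390 and AT1G26410 lie high on control replicate 1 and low on control replicate 3, while their points on the ozone arrays stay closer to 0. Over the ozone arrays AT4G20860 and AT1G26400 spread most (log2 SD 0.44 and 0.39).

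Within an array, the log2 ratio of 1 gene to another shows how far they moved apart, and it is given here as a description. The ratio of AT1G26380 to AT1G26390 rose by 2.85 (SE 0.309), to AT1G30700 by 3.42 (SE 0.885), to AT4G20860 by 3.40 (SE 0.865) and to AT4G20830 by 2.24 (SE 1.14). These sizes rest on the low control signals of AT1G26380. The ratio of AT1G30700 to AT4G20830 changed by -1.18 (SE 0.471), and that of AT1G30700 to AT4G20860 by -0.02 (SE 0.286). An exact permutation test of 3 against 3 arrays cannot give a p below 0.1, so it makes no call on these ratios in either direction.

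**Figure D3:**
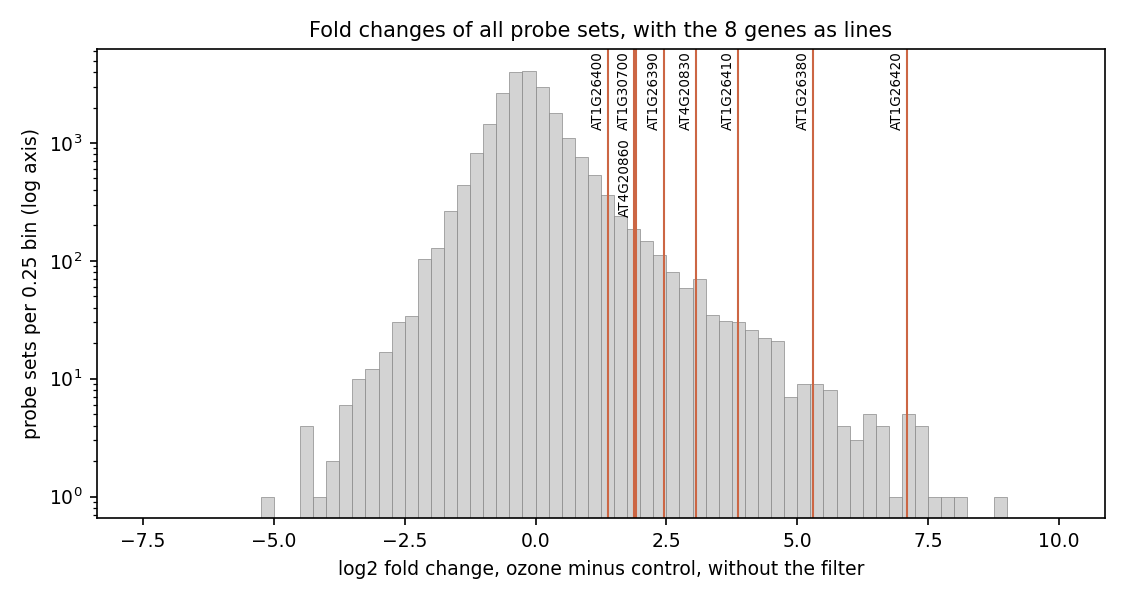
Number of probe sets (log axis) by log2 fold change, ozone minus control, for 22746 probe sets without the filter, with 8 orange lines at the values of the 8 genes. The lines lie between 1.38 for AT1G26400 and 7.09 for AT1G26420, all in the upper tail.

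The rest of the family did not share one direction. The 10 loci were set apart from it with earlier results of these arrays known, so the contrast is not an independent result. Of 17 other berberine bridge enzyme-like loci, 14 have their own probe set, and 10 of these were below the filter. Without the filter 1 of the 14 rose, 1 fell and 12 did not pass, with a median log2 fold change of 0.13. Of all probe sets, 8.34% rose and 8.04% fell in that fit. With 16 added 2 of the 14 rose and 2 fell (8.27% and 8.14% of all probe sets), and with the replicate number as a block 3 rose and 3 fell (12.3% and 16.7%).

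AT2G34810 was the other family member with a steep rise. Its signals were 65.6, 53.2 and 55.5 in the controls and 236, 480 and 159 with ozone, and the ozone arrays spread more than the controls. The log2 fold change was 2.18 (SE 0.366, adjusted p = 0.00431).

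On chromosome 5 the family's neighbours went different ways. AT5G44410 fell from signals of 71.2, 57.5 and 62.5 to 27.9, 18.9 and 22.1 (log2 fold change -1.49, SE 0.215, adjusted p = 0.00232). AT5G44380 rose from 293 ± 76.0 to 458 ± 50.8 (log2 fold change 0.67, adjusted p = 0.0441). That call was lost on omission of any array but control replicate 1, where the adjusted p was 0.0842 to 0.153, and also after median centring (0.0603), without the variance trend (0.0532) and without the filter (0.0634). With the block the adjusted p of AT5G44380 was 0.00185, and 0.00378 with the block but without the filter. AT5G44400, between them, had -0.61 (adjusted p = 0.0842, and 0.0042 with the block). The dim AT5G44390 had signals of 7.0 to 13.9 in the controls and 20.2 to 24.1 with ozone, without overlap (log2 fold change 1.13, adjusted p = 0.0677 without the filter, and 0.0437 with the block or 0.0349 with 16 added in that fit).

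Beside OGOX1 on chromosome 4, AT4G20820 had lower signals on every ozone array. They were 25.5, 18.3 and 17.3 in the controls and 9.6, 10.5 and 7.2 with ozone, all below the filter level. Without the filter its log2 fold change was -1.16 (adjusted p = 0.0539, and 0.0442 with the block or 0.0313 with 16 added). Adjacent genes of the family thus had opposite signs on these arrays. Some members with known activities outside the 10 were dim. AT1G30760, whose product oxidises monolignols, read 3.3 to 14.9. AT1G11770, another oligogalacturonide oxidase, read 3.1 to 8.8, and AT5G44360, another cellodextrin oxidase, 1.9 to 7.1. None of these 3 passed the test without the filter (adjusted p = 0.338, 0.562 and 0.58). The family loci AT1G01980, AT2G34790 and AT4G20840 have no probe set of their own, so no value is given for them.

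**Figure D4:**
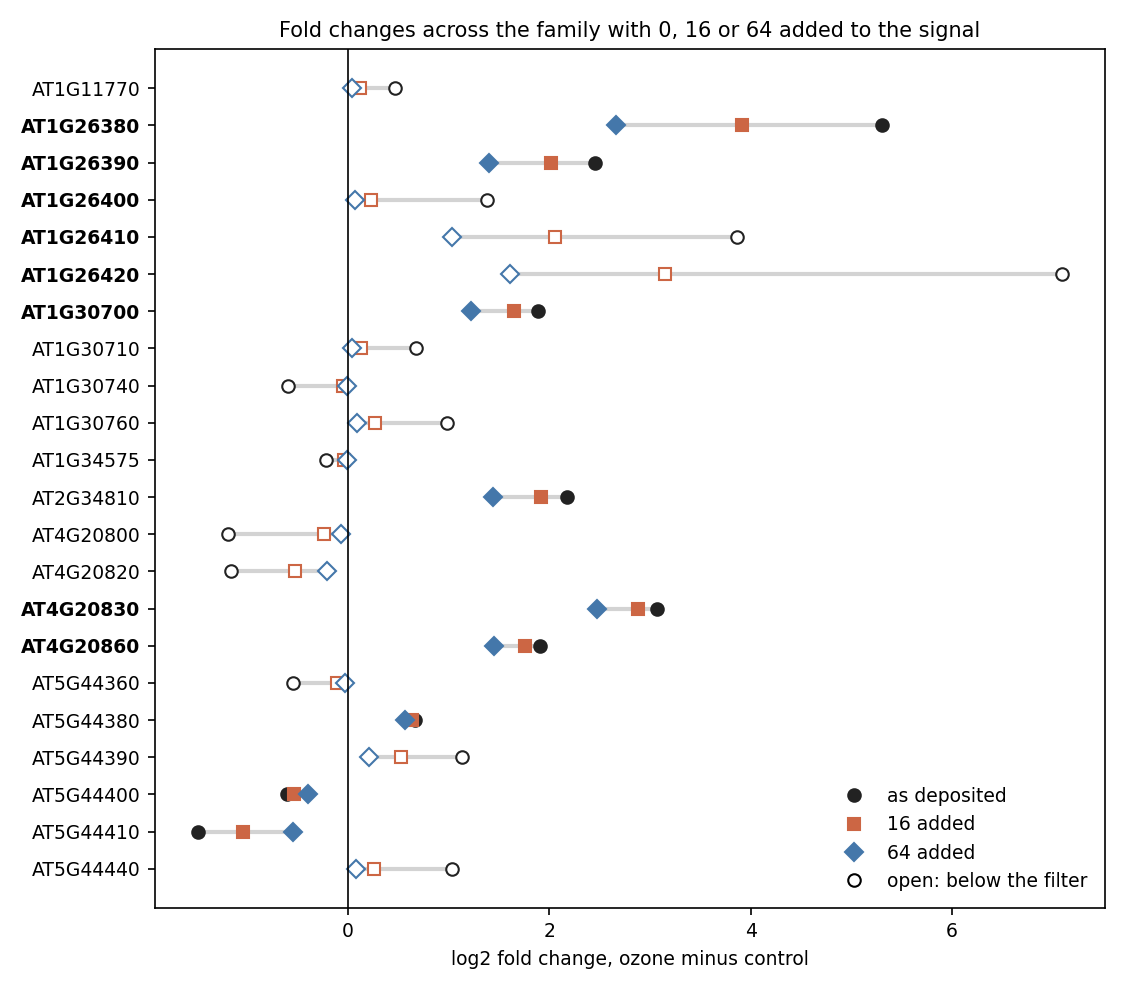
Log2 fold change, ozone minus control, of 22 berberine bridge enzyme-like genes from fits without the filter, as deposited (circles) and with 16 (squares) or 64 (diamonds) added to every signal. Names in bold are the 8 genes described above, and open symbols mark genes below the filter. AT4G20830 moves from 3.07 to 2.47 and AT1G26420 from 7.09 to 1.61.

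Genes of the pathways that these enzymes belong to mostly had no probe set of their own in the platform's table. Of 22810 probe sets, that table gives 13513 to 1 gene and 503 to several, and it leaves the rest unnamed. A locus counted here as lacking a probe set could therefore still be on the array. Of 15 loci of the indole nitrile and camalexin pathway, 0 have a probe set of their own. Of 15 tryptophan synthesis loci 3 do. AT2G04400, an indole-3-glycerol phosphate synthase that provides the indole ring, rose from signals of 198.5 to 202.3 in the controls to 785 to 975 with ozone (log2 fold change 2.15, adjusted p = 0.000104). Its relative AT5G48220 fell from 172 ± 38.3 to 71.9 ± 14.9 (log2 fold change -1.25, adjusted p = 0.00647). AT4G02610, which splits indole from the same intermediate, had -0.45 and did not pass (adjusted p = 0.276).

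AT1G56145, a receptor kinase that senses cellulose fragments, was the single locus of 8 for release and sensing of wall fragments with a probe set of its own. Its signals were 42.5 to 49.2 in the controls and 53.9 to 62.4 with ozone, without overlap, and its log2 fold change of 0.36 did not pass (adjusted p = 0.166). Of 8 markers of the response to microbial patterns, 2 had a probe set of their own in the platform's table. The receptor kinase gene AT1G51890 rose from 46.5 ± 14.0 to 138 ± 11.7 (log2 fold change 1.60, adjusted p = 0.00239). Its relative AT1G51850 was below the filter, with -2.39 and an adjusted p of 0.0817 without the filter. It passed with the block added to that fit (0.0212) and with 16 added to every signal, where the log2 fold change was -0.67 (adjusted p = 0.0274).

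Genes whose profile over the 6 arrays was closest to that of AT1G26380 were found by the root mean square difference of log2 signals, each taken relative to its own control mean, over 7245 loci above the filter. The closest were AT4G39670 (0.901), a glycolipid transfer protein gene, AT1G19020 (0.923), AT1G05340 (0.930), which encodes a small protein with a cysteine-rich transmembrane module, AT3G47480 (0.957), an EF-hand calcium-binding protein gene, and AT3G25610 (1.00), a lipid flippase gene. The median over these loci was 4.03. Among the 7 other genes of the group the closest was AT1G26410 (1.07) and the farthest AT1G26400 (3.04). The measure mostly follows the size of the ozone difference, since the groups lie far apart, and it is given as a description.

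Because whole seedlings were extracted, fewer cells of a type and less RNA per cell cannot be told apart. Of 6 root markers 4 were measured, and their summed signal was 2416 to 3625 in the controls and 1989 to 2630 with ozone. EXPA7, an expansin of root hairs, fell (log2 fold change -0.94, adjusted p = 0.0101, and 0.0506 without control replicate 3), while the other 3 had -0.61 to -0.33 and did not pass. With the block 3 of the 4 fell, in a fit where 30.0% of the probe sets above the filter fell and 19.1% rose. The leaf gene RCA had -0.39 (adjusted p = 0.217, and 0.00783 with the block), 1 of 6 leaf markers being measured. Both measured guard cell markers, of 5, had -0.44 and -0.34 and did not pass, with summed signals of 384 to 432 in the controls and 224 to 378 with ozone, and 1 fell with the block. Of 5 phloem markers 0 had a probe set of their own in the platform's table, which is also why the other unmeasured markers were not read. No marker at 0 was found among those measured, and their part in the rise of the 7 genes was not tested.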

How the data were processed

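RNA of 6 seedling samples was read on Affymetrix ATH1 arrays. The authors deposited 1 linear intensity per probe set, made with MAS5 per the submitters' processing notes, which name no version. Detection calls were not used. With 2% trimmed from each end the mean signal was 100 on each array, as read from the values.

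Signals were taken to log2 with 95 zeros replaced by the lowest positive value on the same array. Without 64 control probe sets, 22746 probe sets were fitted with limma 3.58.1 (lmFit, eBayes with a trend, two-sided) in R 4.3.3, with Benjamini-Hochberg adjustment over all of them, or over the 13648 at or above the 40th percentile of mean log2 signal, which is the main fit. Every adjusted p comes from the main fit for genes above the filter, unless another setting is named. The code was tested on simulated data.

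Groups and replicate numbers come from the sample titles. Deviations of same-numbered samples correlated at 0.374 to 0.747, so the number was read as pairing them. The main fit, with its SEs, intervals and adjusted p-values, does not use this pairing. Fits with the number as a block are given beside it, for single genes mostly where they change a call.

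Probe sets were named by the platform's table (13513 with 1 gene, 503 with several, the rest unnamed here), joined by gene identifier to the RefSeq table of TAIR10.1, used for names and gene order. Where a locus had several probe sets of its own, that with the highest mean log2 signal was used. Each of the 8 genes has 1 of its own, and AT4G20830 is also on a probe set shared with AT4G20840. Genes named are the listed loci, the members of the lists and the 5 loci most like AT1G26380. Members and lists were chosen with earlier results of these data known. Alternatives were another scaling, offset, filter or variance model, the block, and leaving out arrays; combinations of no filter with these were added after seeing the data.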

Additional observations from a re-analysis of the deposited data

How the results depend on the processing

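MAS5 signals at this level are imprecise, and 3 arrays a group limit each value. Among the 5 genes above the filter, 5 rose under each planned setting but 1, the omission of ozone replicate 2 (4). Without the filter 7 of 8 rose as deposited, with 16 or 64 added, with quantile normalization, median centring or the block, and 5 to 7 when 1 array was left out. The log2 fold changes of the 8 genes kept their sign in the settings run. Among the dim other family genes, none of them past the threshold, AT1G30710 went from 0.68 to -0.23 without ozone replicate 3, AT1G30740 from -0.60 to 0.10 without both arrays numbered 1, and AT1G34575 from -0.22 to 0.02 and 0.23 without ozone replicate 1 or control replicate 3. Blocking on the replicate number (replicate block) gave 6699 changed probe sets, 4097 of them lower, against 3816 and 2039, and 5 of 5 genes still rose. Leaving out 1 array gave 2246 to 3690 changed probe sets and 987 to 1933 that fell; the lowest numbers came without ozone replicate 2 (2246 and 991), control replicate 2 (2408 and 1072) or control replicate 3 (2273 and 987). Median centring gave 53.3% of calls higher, against 46.6%. Among the 4 other family genes above the filter 2 rose and 1 fell, where 13.0% and 14.9% of all tested probe sets did. The number that rose was 1 with median centring, without the variance trend and without the filter, and 1 to 2 when 1 array was left out. The number that fell was 0 with the filter at the 60th percentile, which leaves 3 of them, and 2 with the block. The causes were not tested. None of the 8 genes had a second probe set of its own. A probe set that AT4G20830 shares with AT4G20840 was left out, and no value is given for it.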
